A study of Homo sapiens with 16 samples.

Results

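The genes described here are the 4 ID genes (ID1, ID2, ID3 and ID4) and 6 genes of the bone morphogenetic protein (BMP) pathway that feed it or restrain it, namely the ligands BMP2 and BMP4, the secreted antagonist GREM1, the pseudoreceptor BAMBI and the inhibitory SMADs SMAD6 and SMAD7. They are 10 of the 34451 genes to which the transcript values of the series were summed. These 10 genes were chosen by name with earlier results of the same libraries known, in which ID1 and ID3 stood out in the oxygen comparison of transformed cells. Their levels and differences are therefore given as a description, and no p-value is given for any of them. Counts of members past the thresholds used for all genes are part of that description.

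The BJ model is a series of isogenic human fibroblast lines that all derive from BJ, an established foreskin fibroblast line. Primary BJ cells carry no added gene, immortalized cells carry hTERT (the catalytic subunit of telomerase), transformed cells carry hTERT and SV40 Large-T, and metastasizing cells carry hTERT, SV40 Large-T and Ras G12V. All lines were cultivated for 6 passages in DMEM with fetal bovine serum, either at atmospheric oxygen or at 3% oxygen, the moderate hypoxia of the study. Plates were grown in duplicate in parallel, which gives 8 groups of 2 libraries each, named a and b. Each stage is a single line, so a difference between stages cannot be told apart from a difference between lines. The p-values below measure only the spread between duplicate plates.

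BMP ligands are secreted proteins that bind paired serine/threonine kinase receptors, which phosphorylate SMAD1, SMAD5 and SMAD9, and these enter the nucleus with SMAD4 to switch on target genes. The ID genes are the best known of these targets. ID proteins hold a helix-loop-helix but no DNA-binding region, so they capture the E proteins and other bHLH factors and keep them from their sites. SMAD6, SMAD7 and BAMBI are also induced by the pathway and act back on it, and in fibroblasts the ID genes are known for holding back differentiation and senescence programmes.

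SMAD1 and SMAD5 are known to bind GC-rich letters that include GGCGCC, and the promoter of ID1 is a standard example of such an element. The 2000 bases before the start of the canonical transcript of each protein-coding gene were therefore searched in GRCh37 (GGCGCC reads the same on both strands). GGCGCC was present in 9225 of 19859 such windows (46.5%), and in those of 7 of the 10 genes. ID1, ID2 and ID4 held 1 match each, BAMBI held 5, SMAD6 4, and SMAD7 and GREM1 3 each, while the windows of ID3, BMP2 and BMP4 held none. GGCGCC followed after any 5 bases by GTCT, searched on both strands, was present in 73 windows (0.368%) and in none of the 10. The stretches around the matches of the ID genes and around the densest run in BAMBI are shown on the strand of the gene, because ID1 and ID3 carry the widest oxygen differences among the members, and the capitals mark GGCGCC.
ID1, chr20:30192082-30192181, plus strand: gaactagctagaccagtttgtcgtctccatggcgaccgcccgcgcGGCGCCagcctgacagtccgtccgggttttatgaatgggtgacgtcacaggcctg
ID2, chr2:8821731-8821830, plus strand: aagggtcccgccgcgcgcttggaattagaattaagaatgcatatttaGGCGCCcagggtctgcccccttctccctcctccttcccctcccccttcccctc
ID4, chr6:19837046-19837145, plus strand: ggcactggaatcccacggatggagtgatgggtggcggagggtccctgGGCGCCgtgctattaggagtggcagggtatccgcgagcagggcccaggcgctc
BAMBI, chr10:28966160-28966279, plus strand: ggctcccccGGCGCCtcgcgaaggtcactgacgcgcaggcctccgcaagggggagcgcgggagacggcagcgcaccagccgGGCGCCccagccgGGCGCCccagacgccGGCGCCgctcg
ID3, chr1:23885993-23886092, minus strand, the 100 bases just before its start, with no match: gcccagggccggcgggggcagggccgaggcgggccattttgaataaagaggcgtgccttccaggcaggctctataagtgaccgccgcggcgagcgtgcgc

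The match lies 965 bases before the start in ID1, 408 in ID2 and 508 in ID4, and 4 of the 5 matches of BAMBI lie between 281 and 181 bases before its start. The ID1 stretch overlaps an annotated exon, and the ID2 stretch lies within the annotated span of ID2 but outside exons. The other stretches lie outside annotated exons. ACGTG, the core of the element that hypoxia-inducible factors bind, was present on either strand in 13956 of the 19859 windows (70.3%), with 1 match before ID1, 5 before ID2, 4 before ID4 and none before ID3 or BAMBI. It had 5 matches before BMP2, 3 before BMP4, 7 before GREM1, 4 before SMAD6 and 2 before SMAD7. These matches describe the letters only, and no binding was measured.

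Values are TPM, a transcript's share of all transcripts scaled to a fixed total, estimated by the authors for each transcript and summed here by gene. TPM keeps no read counts, so the depth of the libraries is unknown. Between duplicates, 1.83% to 4.08% of genes of at least 1 TPM differed more than 2-fold in 7 groups, against 11% (1301 of 11843) in metastasizing cells at 3% oxygen. All 7 fibroblast markers (COL1A1, COL1A2, COL3A1, COL6A3, VIM, THY1 and PDGFRB) exceeded 1 TPM in some library and summed to 3710 to 17100 TPM. The epithelial, endothelial and leukocyte markers summed to at most 3.61, 0.547 and 3.73 TPM. TERT was 0 to 0.543 TPM in primary libraries and at least 31.6 TPM in all others. HRAS in the libraries labelled metastasizing was 143 and 772 TPM at 3% oxygen and 94.6 and 78.1 TPM at atmospheric oxygen, against 49.4 and 61.8 TPM and 120 and 99 TPM in the transformed libraries. At atmospheric oxygen summed HRAS thus does not separate the libraries labelled metastasizing from the transformed ones. A gene sum does not show the G12V allele. Directions drawn from these libraries rest on the labels and on the study's own cell authentication from the RNA reads. The study reports that it found the mutations of each stage.

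BMP2 and BMP4 are closely related ligands of the pathway. BMP2 (chr20:6748333-6760893, ENSG00000125845) was low throughout. It reached 2.78 and 2.46 TPM in immortalized cells at atmospheric oxygen, and 0.534 and 0.457 TPM at 3% oxygen. In primary cells BMP2 was 0.382 and 0.28 TPM at atmospheric and 0.239 and 0.145 TPM at 3% oxygen. Transformed cells had at most 0.0865 TPM, with 2 of 4 libraries listed at 0, and in metastasizing cells BMP2 was 0.444 and 0.354 TPM at 3% oxygen while both atmospheric libraries were listed at 0. Immortalized cells at atmospheric oxygen were thus the only group with BMP2 above 1 TPM.

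BMP4 (chr14:54416454-54425479, ENSG00000125378) had the opposite shape, a broad plateau with 2 low groups. At atmospheric oxygen BMP4 was 20.8 and 23.7 TPM in primary, 24.6 and 31.3 TPM in immortalized, 18.8 and 17.8 TPM in transformed and 15.9 and 16.1 TPM in metastasizing cells. At 3% oxygen BMP4 was 4.23 and 5.28 TPM in primary cells, 20.2 and 20.1 TPM in immortalized cells, 19.6 and 19.3 TPM in transformed cells and 0.866 and 1.94 TPM in metastasizing cells. Primary, immortalized and metastasizing cells held less BMP4 at 3% oxygen, with no overlap between libraries, by little in immortalized cells. The difference between oxygen levels (3% minus atmospheric, log2(TPM + 0.5) scale, with the standard error of the fit) was -2.12 ± 0.23 in primary and -3.18 ± 0.23 in metastasizing cells, against -0.45 ± 0.23 in immortalized and 0.09 ± 0.23 in transformed cells. Without library a or without library b of metastasizing cells at 3% oxygen, the last stage gave -2.76 and -3.59. In bulk RNA, fewer cells that express a gene and less RNA per cell cannot be told apart.

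GREM1 (chr15:33010205-33037307, ENSG00000166923) encodes Gremlin, a secreted protein that traps BMP2 and BMP4. Only 2 of its 4 annotated transcripts were listed in the deposited table, and its canonical transcript was not among them. The 2 short transcripts summed to 0 to 0.868 TPM over the 16 libraries, with 9 libraries listed at 0. These values do not give the level of the gene, and no comparison was made for GREM1.

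BAMBI (chr10:28966439-28971861, ENSG00000095739) encodes a receptor-like protein without a kinase that blocks receptor pairing. At atmospheric oxygen BAMBI was 10.6 and 11.8 TPM in primary, 2.58 and 2.41 TPM in immortalized, 12.5 and 11.9 TPM in transformed and 8.63 and 8.02 TPM in metastasizing cells. At 3% oxygen BAMBI was 6.71 and 6.34 TPM in primary, 4.78 and 4.47 TPM in immortalized, 7.25 and 7.52 TPM in transformed and 13.7 and 4.55 TPM in metastasizing cells. Immortalized cells were the lowest stage at atmospheric oxygen, and BAMBI was lower at 3% oxygen in primary and transformed cells but higher in immortalized cells. The difference between oxygen levels was -0.74 ± 0.34 in primary, 0.77 ± 0.34 in immortalized and -0.69 ± 0.34 in transformed cells. In metastasizing cells it was -0.06 ± 0.34, and library a at 3% oxygen decided its sign: without a it was -0.81 and without b 0.69.

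SMAD6 (chr15:66994574-67075187, ENSG00000137834), an inhibitory SMAD that acts mainly on the BMP branch, was measured above 1 TPM only in primary cells. Its values there were 4.01 and 4.8 TPM at atmospheric oxygen and 2.47 and 1.34 TPM at 3% oxygen, a difference of -1.06 ± 0.29 with no overlap. Every later library was at 0.714 TPM or below, and the metastasizing libraries were at 0.0537 TPM, 5.58e-05 TPM and at 0 in the others. The loss between primary and immortalized cells was -3.13 ± 0.29 at atmospheric and -1.69 ± 0.29 at 3% oxygen. SMAD6 rests on so little signal after the first stage that no later change is described.

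SMAD7 (chr18:46446223-46477335, ENSG00000101665), which restrains both the BMP and the TGF-beta branch, kept a higher level. Primary cells held 43.7 and 40.9 TPM at atmospheric and 47.8 and 36.3 TPM at 3% oxygen. Immortalized cells held 11.3 and 10.2 TPM at atmospheric and 14.7 and 12 TPM at 3% oxygen. Primary cells were thus above every later library at both oxygen levels. Transformed cells held 11.1 and 9.84 TPM at atmospheric and 6.91 and 5.79 TPM at 3% oxygen, and metastasizing cells held 4.39 and 6.7 TPM at atmospheric and 13.1 and 2.68 TPM at 3% oxygen. The difference between oxygen levels was -0.68 ± 0.49 in transformed cells, without overlap, and 0.30 ± 0.49 in immortalized and -0.02 ± 0.49 in primary cells, and in metastasizing cells it moved from -0.90 without library a to 1.20 without library b at 3% oxygen. A transcript with a retained intron and no complete reading frame held 21.8% to 54.7% of the SMAD7 sum.

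**Figure D1:**
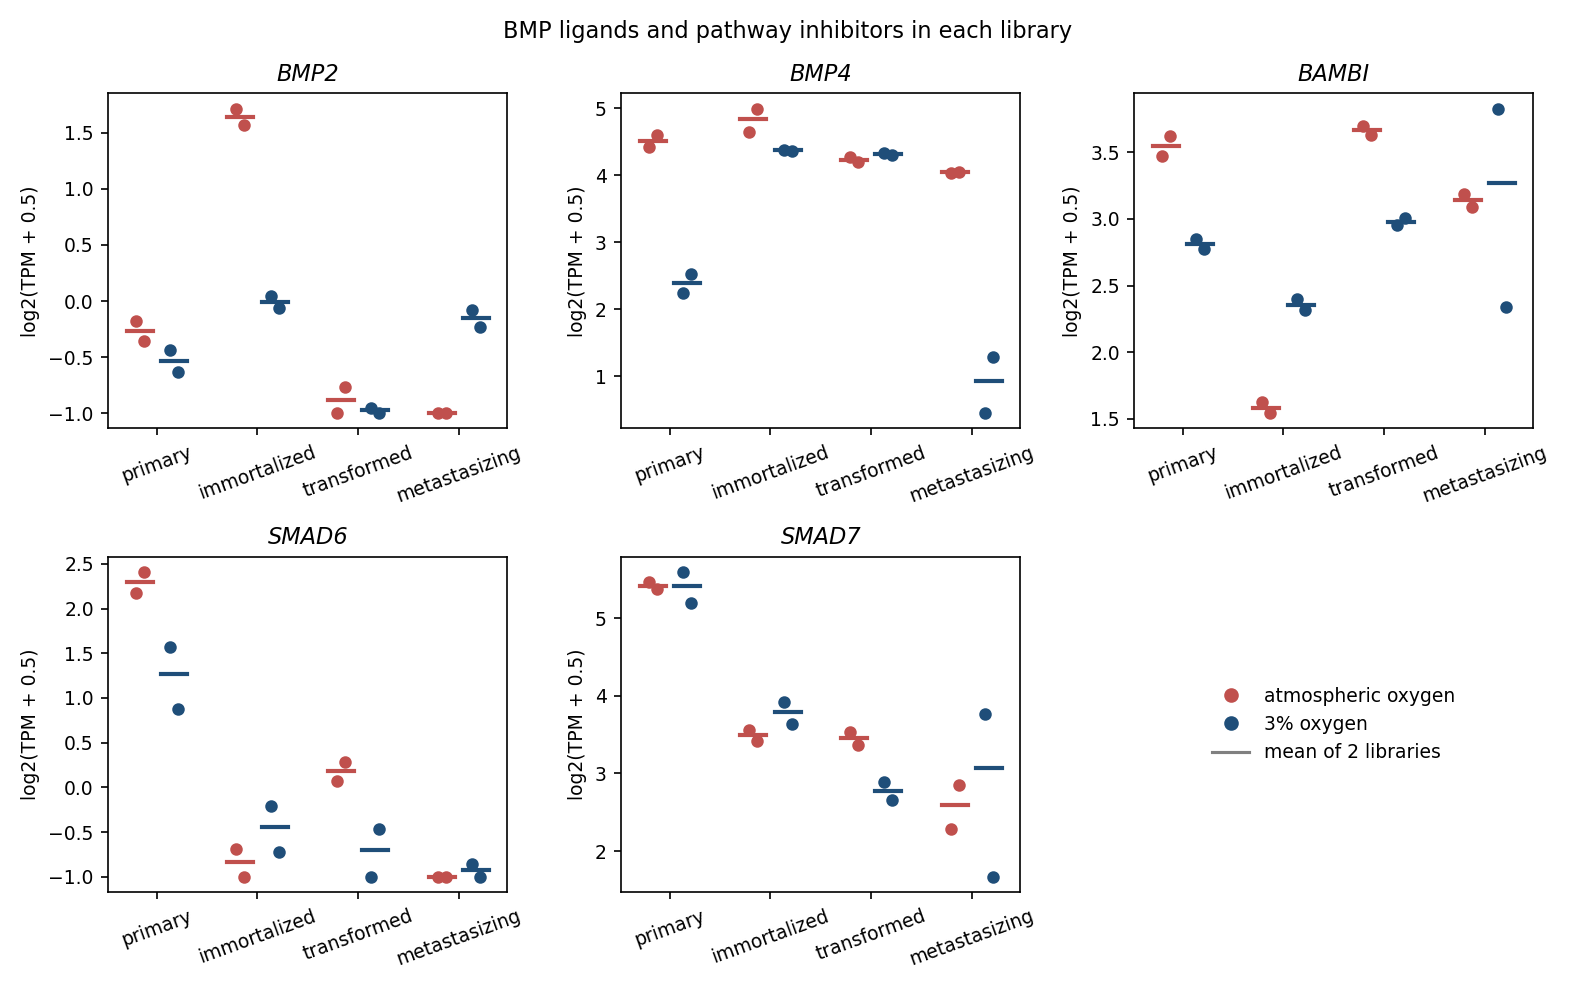
Expression of BMP2, BMP4, BAMBI, SMAD6 and SMAD7 as log2(TPM + 0.5) (vertical axis) in the 4 stages (horizontal axis), at atmospheric (red) and 3% oxygen (blue). Points are the 2 libraries of a group and bars the log2 of their mean TPM + 0.5. BMP4 is low only in primary and metastasizing cells at 3% oxygen, SMAD6 and SMAD7 are highest in primary cells, and the duplicates of metastasizing cells at 3% oxygen lie far apart for BAMBI and SMAD7.

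ID1 (chr20:30193086-30194318, ENSG00000125968) and ID3 (chr1:23884417-23885992, ENSG00000117318) encode the ID proteins that respond most readily to BMP in many cell types. In primary cells ID1 was 115 and 213 TPM at atmospheric oxygen and 210 and 111 TPM at 3% oxygen, and these libraries overlapped. Immortalized cells held 6.15 and 13.4 TPM of ID1 at atmospheric oxygen and 59.9 and 51.9 TPM at 3% oxygen. Transformed cells held 53.9 and 46 TPM of ID1 at atmospheric oxygen and 2.62 and 2.74 TPM at 3% oxygen. The order of the oxygen levels was thus opposite in these stages, with no overlap in either. Metastasizing cells held 6.73 and 4.71 TPM of ID1 at atmospheric oxygen and 21.1 and 13.5 TPM at 3% oxygen, which returned to the order of immortalized cells.

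ID3 followed the same course at a higher level. Its values were 266 and 339 TPM at atmospheric and 347 and 259 TPM at 3% oxygen in primary cells. Immortalized cells held 18 and 31.8 TPM of ID3 at atmospheric and 161 and 150 TPM at 3% oxygen. Transformed cells reversed this order, with 186 and 168 TPM of ID3 at atmospheric and 7.46 and 7.63 TPM at 3% oxygen. Metastasizing cells held 31.8 and 24.6 TPM of ID3 at atmospheric and 90 and 33.8 TPM at 3% oxygen. Over the 16 libraries, the log2 values of ID1 and ID3 had a Pearson correlation of 0.977, a description of libraries that fall into 8 groups and share the total to which TPM is scaled.

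Set in order of their mean, the groups ran for ID1 from 164 TPM (primary, atmospheric) and 161 TPM (primary, 3%) over 55.9 TPM (immortalized, 3%), 49.9 TPM (transformed, atmospheric), 17.3 TPM (metastasizing, 3%), 9.79 TPM (immortalized, atmospheric) and 5.72 TPM (metastasizing, atmospheric) to 2.68 TPM (transformed, 3%). The neighbours whose libraries overlapped were the 2 primary groups, immortalized cells at 3% with transformed cells at atmospheric oxygen, and immortalized with metastasizing cells at atmospheric oxygen. For ID3 the order was 303 TPM in both primary groups, then 177 TPM (transformed, atmospheric), 156 TPM (immortalized, 3%), 61.9 TPM (metastasizing, 3%), 28.2 TPM (metastasizing, atmospheric), 24.9 TPM (immortalized, atmospheric) and 7.54 TPM (transformed, 3%). Here only the primary groups, and metastasizing with immortalized cells at atmospheric oxygen, overlapped as neighbours. Transformed cells at 3% oxygen were the lowest group for both genes.

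The ID1 sum comes from 2 annotated transcripts, of which ENST00000376112 held 74.4% to 94.7% of it in every library. ID3 is spread over 3 transcripts, and the coding ENST00000374561 held 36.5% to 69.2%. This coding transcript alone was 10 and 19.6 TPM in immortalized cells at atmospheric oxygen against 74.8 and 59.8 TPM at 3%, and 114 and 97.9 TPM in transformed cells at atmospheric oxygen against 4.51 and 4.57 TPM at 3%. The opposite order of the oxygen levels is thus present in the coding transcript as well as in the sum.

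ID2 (chr2:8818975-8824591, ENSG00000115738) had the order of ID1 and ID3 between oxygen levels in immortalized but not in transformed cells. In primary cells ID2 was 169 and 181 TPM at atmospheric and 147 and 120 TPM at 3% oxygen. Immortalized cells held 12.4 and 15.2 TPM of ID2 at atmospheric and 58.7 and 57.8 TPM at 3% oxygen, the same order as ID1 and ID3. In transformed cells ID2 was 61.3 and 60.6 TPM at atmospheric and 73.2 and 97 TPM at 3% oxygen, so it was higher where ID1 and ID3 were at their lowest. Metastasizing cells held 29.2 and 30.1 TPM of ID2 at atmospheric and 23.6 and 29.3 TPM at 3% oxygen, which overlapped. The correlation of ID2 was 0.612 with ID1 and 0.536 with ID3 over the 16 libraries.

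ID4 (chr6:19837601-19842428, ENSG00000172201), a member that can also oppose the other ID proteins, stayed low. It was 5.35 and 5.18 TPM at atmospheric and 3.91 and 3.26 TPM at 3% oxygen in primary cells. Immortalized cells held 0.0782 and 0.243 TPM of ID4 at atmospheric and 1.03 and 1.08 TPM at 3% oxygen. The primary libraries were above all others. Transformed cells held 0.672 and 0.45 TPM of ID4 at atmospheric and 0.39 and 0.367 TPM at 3% oxygen, and metastasizing cells 0.0967 and 0.141 TPM at atmospheric and 1.05 and 0.4 TPM at 3% oxygen.

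**Figure D2:**
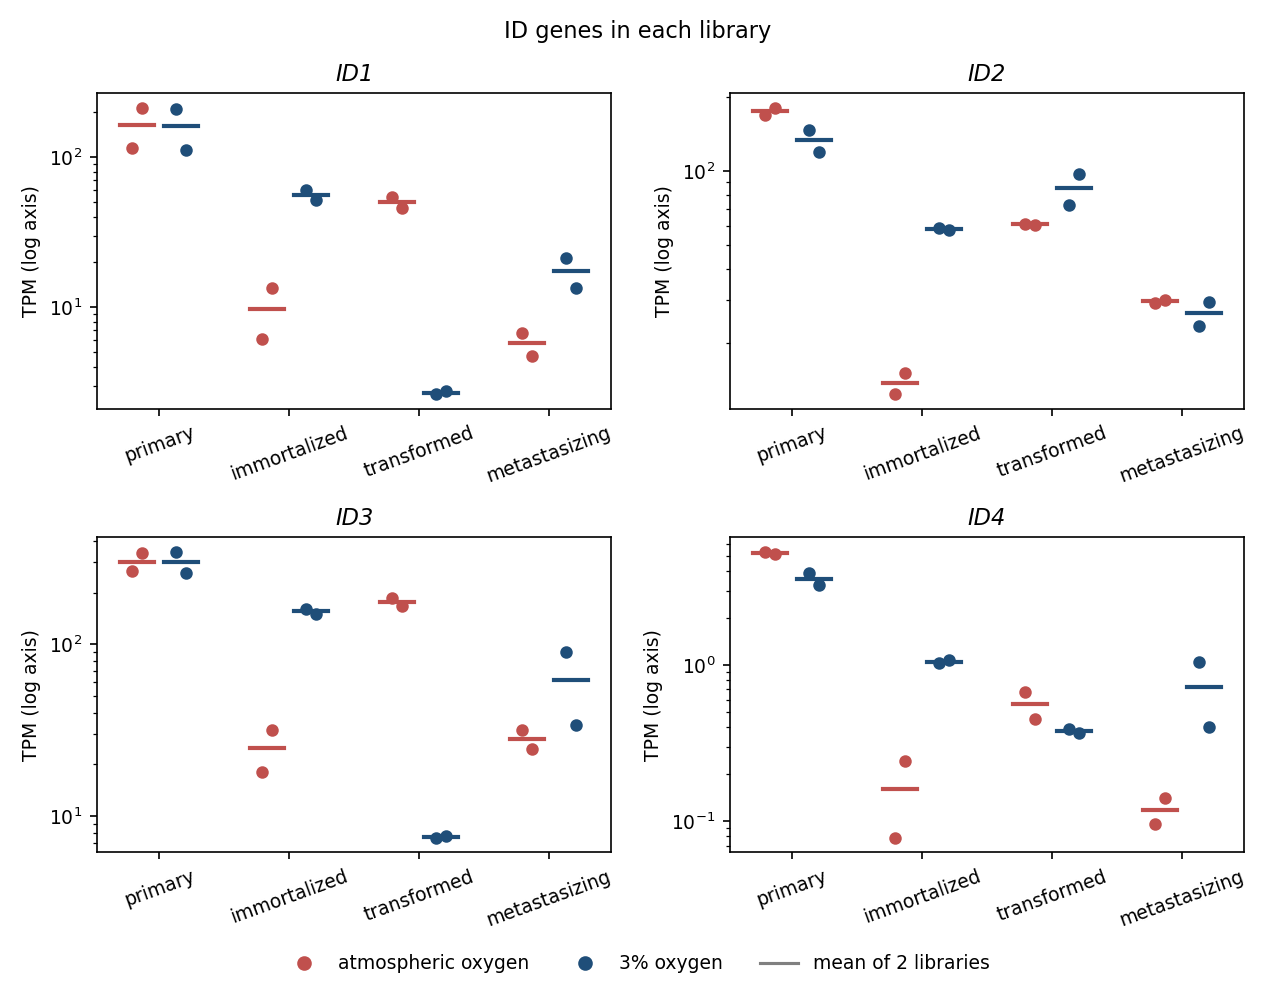
Expression of ID1, ID2, ID3 and ID4 in TPM (vertical axis, logarithmic) in the 4 stages (horizontal axis), at atmospheric (red) and 3% oxygen (blue). Points are the 2 libraries of a group and bars their mean. In immortalized cells all ID genes are higher at 3% oxygen, while in transformed cells ID1 and ID3 drop to 2.68 and 7.54 TPM at 3% oxygen and ID2 does not.

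The study asks how each stage responds to low oxygen, and the oxygen levels were compared within each stage. A gene was called changed at an adjusted p under 0.01 (limma, Benjamini-Hochberg over all tested protein-coding genes) and a log2 change beyond 1, provided that 1 of the compared groups averaged 1 TPM or more. GREM1 was left out, and members that pass this filter may do so through the group in which they are high, so the counts below describe and nothing is read from them. In primary cells 5.30% of all genes were called, and 1 of the 8 members that passed the filter, BMP4. In immortalized cells 4.91% of all genes were called and 5 of 8 members. In transformed cells 7.48% of all genes were called and 2 of 6 members, and in metastasizing cells 7.66% and 1 of 6 members, again BMP4.

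In immortalized cells all ID genes were higher at 3% oxygen. The difference was 2.55 ± 0.41 for ID1, 2.05 ± 0.16 for ID2, 2.67 ± 0.38 for ID3 and 1.25 ± 0.26 for ID4, in each case with both libraries at 3% above both at atmospheric oxygen. BMP2 lay the other way, at -1.65 ± 0.19. As ratios of the mean TPM, ID1, ID2 and ID3 were 5.71, 4.23 and 6.24 times as high at 3% oxygen, and BMP2 was 5.29 times as high at atmospheric oxygen. The ID1 difference ranged from 2.01 without library a to 3.08 without library b of immortalized cells at atmospheric oxygen, whose ID1 values are more than 2-fold apart.

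Transformed cells showed the widest differences of the 4 stages for ID1 and ID3. ID1 was lower at 3% oxygen by -3.98 ± 0.41 and ID3 by -4.46 ± 0.38 on the log2(TPM + 0.5) scale, which are ratios of the mean TPM of 18.6 and 23.5. Leaving out any of the 4 libraries gave -4.09 to -3.87 for ID1 and -4.54 to -4.39 for ID3. ID2 differed by 0.46 ± 0.16 in the other direction, and its libraries did not overlap either. ID4 differed by -0.26 ± 0.26, with all its group means under 1 TPM.

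In metastasizing cells none of the ID genes passed the thresholds between oxygen levels. ID1 was higher at 3% oxygen by 1.50 ± 0.41, and by 1.19 and 1.81 without library a or b at 3% oxygen. ID3 was higher by 0.97 ± 0.38, a value that went from 0.27 without library a to 1.67 without library b at 3% oxygen. ID2 differed by -0.17 ± 0.16, and ID4, under 1 TPM in both groups, by 0.94 ± 0.26. In primary cells the difference was -0.03 ± 0.41 for ID1, -0.40 ± 0.16 for ID2, below 0.01 in size with a standard error of 0.38 for ID3, and -0.50 ± 0.26 for ID4. The sign for ID1 in primary cells changed with the library left out, from -0.49 to 0.43, and so did that for ID3, from -0.21 to 0.21.

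**Figure D3:**
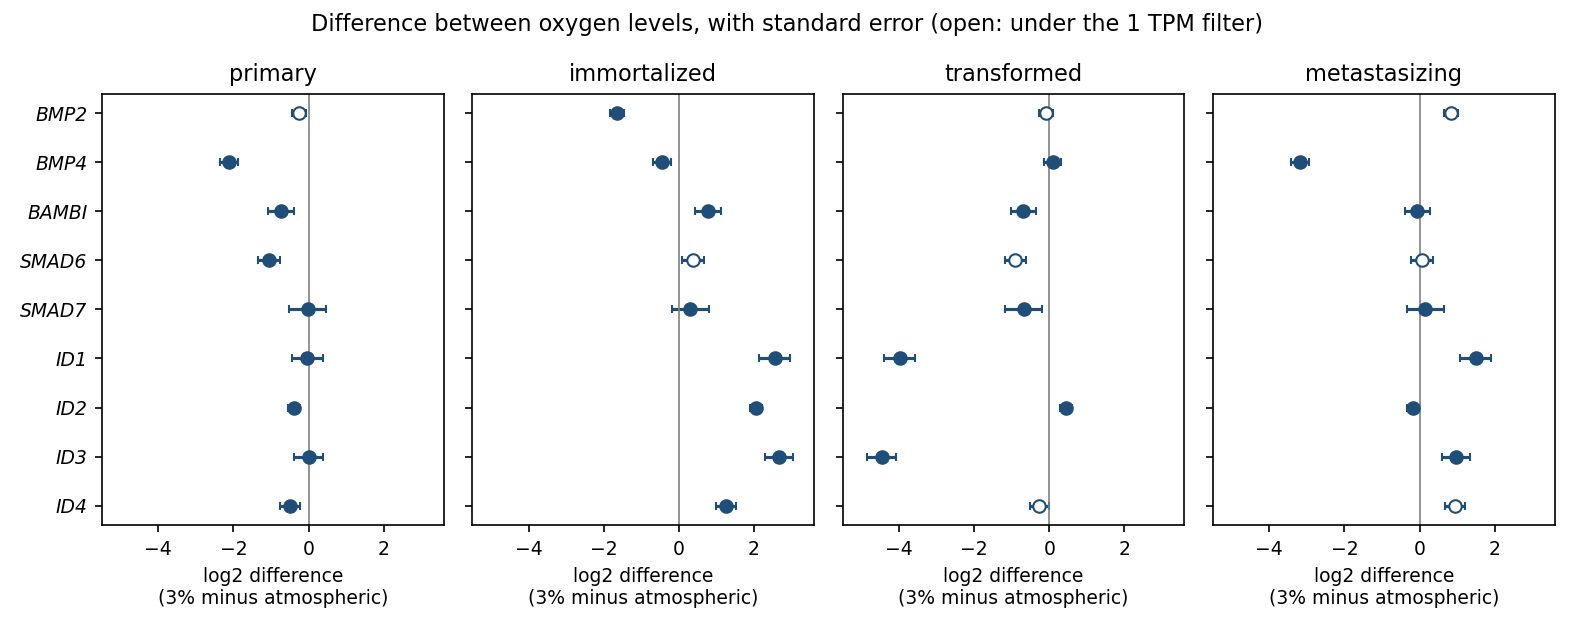
Difference between 3% and atmospheric oxygen for 9 of the genes in each stage (horizontal axis, log2(TPM + 0.5) scale), with the standard error of the fit as bars. Open points mark genes under 1 TPM in both groups. ID1 and ID3 lie right of 0 in immortalized cells, at -3.98 and -4.46 in transformed cells and right of 0 in metastasizing cells, and BMP4 lies far left in primary and metastasizing cells.

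The difference of the oxygen effect between neighbouring stages shows the same turn. From immortalized to transformed cells the oxygen effect on ID1 changed by -6.53 ± 0.57 and that on ID3 by -7.14 ± 0.54, and from transformed to metastasizing cells by 5.48 ± 0.57 and 5.43 ± 0.54. Among all genes, 1.86% were called for a change of the oxygen effect between primary and immortalized cells, 12.0% between immortalized and transformed cells and 8.47% between transformed and metastasizing cells. Of the members, 1 of 9, 5 of 8 and 3 of 6 were called, and again nothing is read from these counts.

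Stages were then compared at each oxygen level, as the study does along its model. Adding hTERT is the step from primary to immortalized cells, and there the ID genes, SMAD6, SMAD7 and BAMBI were all lower at both oxygen levels. At atmospheric oxygen the change was -4.02 ± 0.41 for ID1, -3.63 ± 0.16 for ID2, -3.62 ± 0.38 for ID3 and -3.14 ± 0.26 for ID4. At 3% oxygen the same step gave -1.45 ± 0.41 for ID1, -1.18 ± 0.16 for ID2, -0.95 ± 0.38 for ID3 and -1.39 ± 0.26 for ID4. SMAD7 changed by -1.93 ± 0.49 at atmospheric and -1.61 ± 0.49 at 3% oxygen, while BMP4 was higher by 0.32 ± 0.23 and 1.98 ± 0.23. At atmospheric oxygen 12.2% of all genes and 7 of 9 members were called, and at 3% oxygen 9.23% and 4 of 8.

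Adding SV40 Large-T is the next step, and here ID1 and ID3 lay in opposite directions at the oxygen levels. At atmospheric oxygen ID1 was higher by 2.38 ± 0.41, ID2 by 2.11 ± 0.16 and ID3 by 2.86 ± 0.38. At 3% oxygen ID1 was lower by -4.14 ± 0.41 and ID3 by -4.28 ± 0.38, while ID2 differed by 0.53 ± 0.16. BAMBI was higher at both levels, by 2.09 ± 0.34 and 0.62 ± 0.34. The share of genes called was 24.3% at atmospheric oxygen, where 5 of 7 members were called, and 16.3% at 3% oxygen, where 2 of 7 were.

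The last step, from transformed to the libraries labelled metastasizing, again ran in opposite directions. At atmospheric oxygen ID1 was lower by -3.03 ± 0.41, ID2 by -1.02 ± 0.16 and ID3 by -2.64 ± 0.38. At 3% oxygen ID1 was higher by 2.45 ± 0.41 and ID3 by 2.79 ± 0.38, ID2 was lower by -1.66 ± 0.16 and BMP4 by -3.45 ± 0.23. Without library a or b of metastasizing cells at 3% oxygen, the value was 2.14 and 2.76 for ID1, 2.09 and 3.49 for ID3, and -3.03 and -3.87 for BMP4. At atmospheric oxygen 4.12% of all genes and 3 of 6 members were called, and at 3% oxygen 5.92% and 4 of 6.

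The other genes of the pathway were taken from 9 lists of 93 genes, none of them a member, and these were tested. The lists too were chosen with earlier results of these libraries known, and the p-values do not account for that choice. Of the lists, 69 genes were tested in at least 1 comparison and 47 were called in at least 1 of the 10 oxygen and stage comparisons. That share was not computed over all genes, of which 24.3% were called from immortalized to transformed cells at atmospheric oxygen alone. Nothing is therefore read from the 47. Between oxygen levels 8 of 66 genes were called in primary cells (3 higher and 5 lower at 3% oxygen), 7 of 61 in immortalized cells (3 higher, 4 lower), 3 of 62 in transformed cells (2 higher, 1 lower) and 8 of 60 in metastasizing cells (4 higher, 4 lower). Over all genes 5.30%, 4.91%, 7.48% and 7.66% were called in these stages, so the share of the lists lay below that of all genes in transformed cells and above it in the others. The median log2 difference of the lists was 0.03, 0.14, 0.32 and -0.08 in the 4 stages, beside 0.08, 0.11, 0.01 and -0.13 over all genes tested. The oxygen effect on the pathway as a whole was thus mixed in direction in every stage.

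ATOH8, a bHLH gene that BMP is known to induce, came closest to the ID genes among those tested. In transformed cells it was 13.5 and 12.9 TPM at atmospheric oxygen and 1.26 and 0.832 TPM at 3% oxygen, a fall of -3.16 ± 0.34 (limma, adjusted p = 9.77e-05). It was 27 and 35.3 TPM in primary cells at atmospheric oxygen and 31.9 and 20.3 TPM at 3% oxygen. Immortalized cells held 2.75 and 3.48 TPM of ATOH8 at atmospheric and 9.05 and 7.77 TPM at 3% oxygen, and metastasizing cells 5.9 and 4.5 TPM at atmospheric and 5.06 and 2.04 TPM at 3% oxygen. The oxygen effect on ATOH8 changed by -4.47 ± 0.48 between immortalized and transformed cells (limma, adjusted p = 1.05e-04). Between transformed and metastasizing cells it changed by 2.57 ± 0.48 (adjusted p = 0.00339). This last call was lost without library b of transformed cells at 3% oxygen, without either transformed library at atmospheric oxygen or without library b of metastasizing cells at atmospheric oxygen, and the values over all such fits were 2.00 to 3.13.

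MSX2, a homeobox gene, was 2.52 ± 0.309 TPM (SD, n = 2, as for all values with ± in TPM) in immortalized cells at atmospheric oxygen and fell to 0.372 ± 0.043 TPM at 3% (log2 difference -1.79 ± 0.24, limma adjusted p = 5.73e-04), where the ID genes were higher. DLX2, a homeobox gene named here after its values were seen, was 1.6 and 1.33 TPM at 3% against 0.693 and 0.913 TPM at atmospheric oxygen in immortalized cells, and 0.212 and 0.155 TPM against 0.822 and 0.494 TPM in transformed cells. These are the orders of ID1 and ID3, without overlap, but the change of the oxygen effect on DLX2 between these stages (-1.34 ± 0.52, limma adjusted p = 0.071) did not pass the threshold. DLX2 differs here from most of its list of other BMP-responsive genes. In immortalized cells the median log2 difference of that list was -0.88, beside 0.11 over all genes, and limma gave 7 of its 9 tested genes an unadjusted p under 0.05. Of this list 1 gene was called in each of immortalized, transformed and metastasizing cells and 0 of 8 in primary cells, where limma gave 2 of the 8 an unadjusted p under 0.05. RUNX2, the third of these calls, fell in metastasizing cells by -1.22 ± 0.24 (adjusted p = 0.00417), but its canonical transcript was not listed and its sum is partial, and the call was lost without library a at 3% oxygen (-0.76) or either library at atmospheric oxygen (-1.21 and -1.22). HES1, a bHLH repressor better known as a Notch target, fell from immortalized to transformed cells at both oxygen levels, by -3.07 ± 0.32 (adjusted p = 1.22e-05) and -1.88 ± 0.32 (adjusted p = 7.06e-04), the step at which ID1 lay in opposite directions.

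Among ligands, 3 of the 12 listed passed the filter anywhere. BMP6 rose at 3% oxygen in primary cells from 0.0471 ± 0.0229 to 1.27 ± 0.306 TPM (log2 difference 1.69 ± 0.23, limma adjusted p = 5.96e-04), in the stage where BMP4 was lower. GDF6 fell there from 1.61 ± 0.742 to 0.152 ± 0.0154 TPM (-1.65 ± 0.28, adjusted p = 0.00173), a call lost without either library at 3% oxygen or without library a at atmospheric oxygen. GDF5 fell in immortalized cells from 4.22 ± 1.48 to 1.37 ± 0.0325 TPM (-1.30 ± 0.26, adjusted p = 0.00458), a call lost without either library at 3% oxygen, and at -0.98 without library b at atmospheric oxygen. Each of these ligands stayed below 6 TPM in every library.

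Of the receptors and co-receptors 1 of 7 was called in immortalized cells, and 0 of 7, 0 of 8 and 0 of 7 in primary, transformed and metastasizing cells, where limma gave 3, 5 and 3 an unadjusted p under 0.05. The call was RGMB, a co-receptor that rose from 129 ± 7.01 to 320 ± 16.5 TPM at 3% oxygen (1.30 ± 0.21, limma adjusted p = 0.00138), with a call lost when any of the 4 libraries was left out, at values of 1.25 to 1.36. RGMB was higher at 3% oxygen without overlap in the other stages too. Atmospheric against 3% libraries were 188 and 236 against 368 and 374 TPM in primary cells. They were 179 and 157 against 210 and 212 TPM in transformed and 135 and 142 against 166 and 300 TPM in metastasizing cells. SMAD1, which carries the BMP signal, fell in immortalized cells from 26.5 ± 1.77 to 11 ± 0.789 TPM (-1.24 ± 0.17, adjusted p = 6.54e-04), where all ID genes were higher. SMAD9, whose 8.23 ± 1.77 TPM in primary cells at atmospheric oxygen became 0.834 ± 0.0804 TPM in immortalized cells (-2.70 ± 0.32, adjusted p = 8.13e-05), also fell at 3% oxygen by -2.42 ± 0.32 (adjusted p = 2.50e-04). Between oxygen levels in immortalized cells SMAD9 was 0.777 and 0.891 TPM at atmospheric and 2.29 and 2.13 TPM at 3% oxygen (1.02 ± 0.32), which missed the threshold (adjusted p = 0.0364). ACVRL1, a type I receptor, fell from immortalized to transformed cells at atmospheric oxygen by -2.51 ± 0.40 (adjusted p = 2.99e-04), and ENG, its co-receptor, fell from primary to immortalized cells at 3% oxygen by -1.25 ± 0.22 (adjusted p = 0.00153), a call lost without library a of primary or library b of immortalized cells at 3% oxygen.

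Of the secreted antagonists, 5 of 11 were called from primary to immortalized cells at each oxygen level and 5 of 10 from immortalized to transformed cells, beside the shares of all genes given above. FST, which traps activins and some BMPs, rose from primary to immortalized cells by 2.45 ± 0.26 at atmospheric oxygen (47.4 ± 2.42 to 261 ± 26.2 TPM, limma adjusted p = 4.36e-05) and by 4.50 ± 0.26 at 3% oxygen (11 ± 1.42 to 260 ± 23.2 TPM, adjusted p = 6.58e-07). It fell back in transformed cells by -2.72 ± 0.26 and -2.93 ± 0.26 (adjusted p = 7.79e-06 and 8.98e-06). The FST level peaked in immortalized cells at both oxygen levels. ID1 and ID3 there were low at atmospheric and higher at 3% oxygen, and a link between FST and the ID genes was not tested. CHRDL1, a chordin-like BMP binder, rose from immortalized to transformed cells at atmospheric oxygen by 2.42 ± 0.22 (2.86 ± 0.0911 to 17.5 ± 0.0741 TPM, adjusted p = 4.74e-06). FSTL3, a relative of FST, fell from primary to immortalized cells by -2.01 ± 0.24 at atmospheric (adjusted p = 9.99e-05) and -1.75 ± 0.24 at 3% oxygen (adjusted p = 3.76e-04), opposite to FST. NOG, which encodes the BMP trap Noggin and is named after its values were seen, rose at 3% oxygen in primary cells from 2.73 ± 1.04 to 8.41 ± 1.04 TPM (1.50 ± 0.27, adjusted p = 0.00255) and in transformed cells from 1.13 ± 0.153 to 3.37 ± 0.837 TPM (1.23 ± 0.27, adjusted p = 0.00514). Its difference was 0.43 ± 0.27 in immortalized and 0.38 ± 0.27 in metastasizing cells, and both NOG calls were lost without any of 3 of the 4 libraries, over values of 1.16 to 1.83 and 1.01 to 1.46.

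Among intracellular restraints, SMURF2, a ubiquitin ligase that targets BMP and TGF-beta components, rose at 3% oxygen in primary cells from 47.8 ± 2.51 to 168 ± 7.27 TPM (1.80 ± 0.10, limma adjusted p = 1.75e-06). SMURF2 was also higher at 3% oxygen, but not called, in immortalized cells (58.1 and 52.4 against 93.9 and 89.7 TPM) and metastasizing cells (46.8 and 50 against 82.1 and 71.9 TPM). In transformed cells its libraries overlapped. NEDD4L, a related ligase, rose at 3% oxygen in transformed cells from 46.3 ± 1.67 to 99.5 ± 5.84 TPM (1.09 ± 0.13, adjusted p = 1.56e-04). Between stages at atmospheric oxygen, PMEPA1 fell from 7.32 ± 2.45 to 0.218 ± 0.0443 TPM with immortalization (-3.41 ± 0.57, adjusted p = 8.90e-04, lost without library b of primary cells at -3.09). It rose again to 5.71 ± 1.64 TPM with transformation (3.09 ± 0.57, adjusted p = 8.75e-04, lost without library a of transformed cells at 2.82). TGIF1, a SMAD corepressor, fell at the latter step from 176 ± 32.1 to 44.8 ± 0.366 TPM (-1.95 ± 0.24, adjusted p = 3.94e-05). At 3% oxygen PMEPA1 also rose at this step, by 2.84 ± 0.57 (adjusted p = 0.00225, lost without either immortalized library or library a of transformed cells), where ID1 and ID3 were lower.

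Of the bHLH factors that ID proteins bind, 0 of 7, 0 of 6 and 0 of 6 were called between oxygen levels in primary, immortalized and transformed cells, where limma gave 3, 1 and 1 an unadjusted p under 0.05. In metastasizing cells 1 of 7 was called, and TWIST1 fell from 55.4 ± 3.95 to 17.4 ± 8.09 TPM (-1.72 ± 0.29, limma adjusted p = 0.00178). That call was lost without either library at atmospheric oxygen, and the value was -1.24 to -2.20 over the fits without 1 library. MSC, a bHLH repressor, rose from 2.2 ± 1.05 to 31.4 ± 2.35 TPM from primary to immortalized cells at atmospheric oxygen (3.62 ± 0.64, adjusted p = 0.00122), a call lost without library a of either group. It fell to 0.55 ± 0.288 TPM in transformed cells (-4.95 ± 0.64, adjusted p = 6.62e-05). MSC was high in a group with little ID1, ID2, ID3 and ID4, and low in others with little ID1 and ID3. It was 0.57 and 2.2 TPM in transformed cells at 3% oxygen and 2.6 and 1.32 TPM in metastasizing cells at atmospheric oxygen. A link between MSC and the ID genes was not tested. TWIST2 fell from immortalized to transformed cells at atmospheric oxygen by -2.22 ± 0.57 (limma adjusted p = 0.00663), but only 1 of its 3 annotated transcripts was listed. The call was lost without library b of immortalized cells (-1.62) or either library of transformed cells (-2.45 and -1.99). HAND2 fell from primary to immortalized cells at atmospheric oxygen by -2.18 ± 0.43 (adjusted p = 0.00228), a call lost without library b of primary or either library of immortalized cells (-2.37 to -1.97).

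The list of genes that ID proteins are known to restrain holds 4 genes, each called in at least 1 of the 10 oxygen and stage comparisons. That share was not computed over all genes, and nothing is read from it. CDKN2A, which encodes p16 and ARF, was 8.3 and 4.89 TPM in primary cells at atmospheric oxygen and 0.461 and 2.05 TPM at 3% oxygen (-2.14 ± 0.37, limma adjusted p = 0.00215, lost without library a at atmospheric oxygen at -1.79). It was listed at 0 in 3 of 4 immortalized libraries and at 82.5 to 97.4 TPM in transformed cells. CDKN2B followed it, with 2.16 to 4.17 TPM in primary libraries, 0 to 0.0149 TPM in immortalized and 5.98 to 11.9 TPM in transformed ones. CDKN2A and CDKN2B were thus low in immortalized and high in transformed cells at both oxygen levels. Over the same step ID1 lay in opposite directions at the oxygen levels, and a link between ID1 and these genes was not tested. CDKN1A fell from immortalized to transformed cells at atmospheric oxygen by -2.49 ± 0.34 (adjusted p = 9.62e-05), and THBS1 at 3% oxygen by -3.35 ± 0.55 (adjusted p = 5.83e-04).

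In the TGF-beta and activin branch, TGFBI, a secreted TGF-beta target, rose at 3% oxygen in immortalized cells from 34.6 ± 3.58 to 197 ± 2.86 TPM (2.49 ± 0.10, limma adjusted p = 5.87e-07), as the ID genes were higher there. In metastasizing cells it rose from 116 ± 3.49 to 341 ± 16 TPM (1.55 ± 0.10, adjusted p = 5.34e-06). In transformed cells TGFBI was 181 and 189 TPM at atmospheric and 292 and 288 TPM at 3% oxygen, higher where ID1 and ID3 were lower. TGFB2, a ligand, was 0.797 ± 0.0225 TPM in immortalized and 45.4 ± 2.39 TPM in transformed cells at atmospheric oxygen (5.14 ± 0.58, adjusted p = 2.49e-05) and changed alike at 3% oxygen (5.10 ± 0.58, adjusted p = 5.01e-05). INHBA, the activin A subunit, was 3.27 and 3.04 TPM at atmospheric and 51.1 and 11 TPM at 3% oxygen in metastasizing cells (2.74 ± 0.50, adjusted p = 0.00258), a call lost without either library at atmospheric oxygen and a value of 1.66 without library a at 3% oxygen. CCN2, a matricellular TGF-beta target, fell from primary to immortalized cells at atmospheric oxygen from 989 ± 64.1 to 138 ± 10.4 TPM (-2.84 ± 0.68, adjusted p = 0.00714), a call lost without any 1 of the 4 libraries (-2.91 to -2.76).

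**Figure D4:**
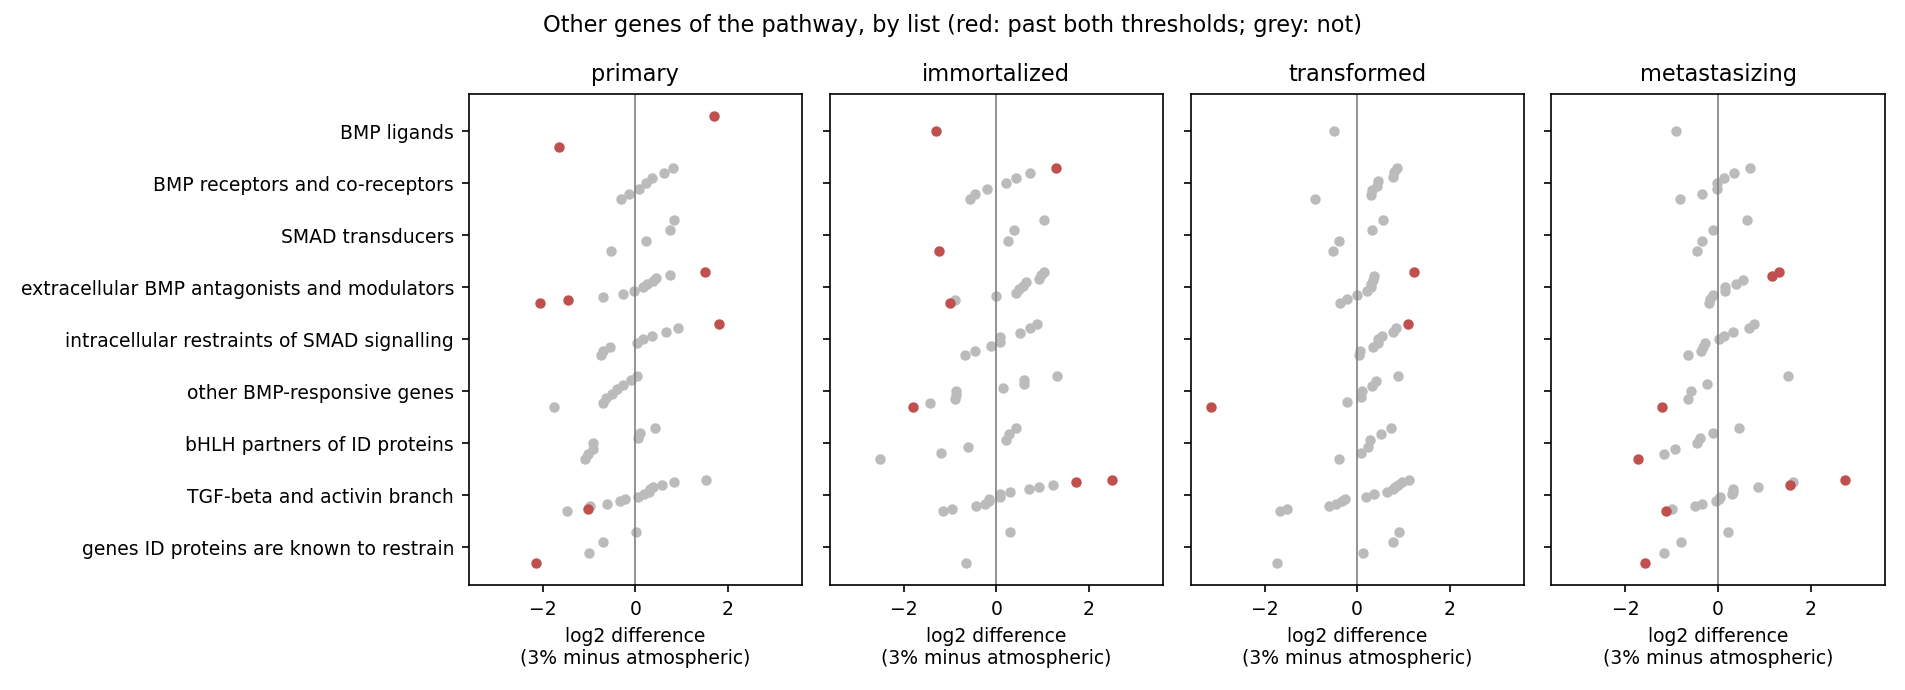
Difference between 3% and atmospheric oxygen (horizontal axis, log2(TPM + 0.5) scale) of the other pathway genes tested in each stage, 1 point per gene, set in rows by list. Red points passed both thresholds and grey points did not. Red points lie on both sides of 0 in every stage, and the far left point in transformed cells is ATOH8 at -3.16.

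Over the stages, 25 of 67 other pathway genes were called from primary to immortalized cells at atmospheric oxygen (10 higher, 15 lower) and 18 of 65 at 3% oxygen (7 higher, 11 lower). The step to transformed cells gave 30 of 64 (11 higher, 19 lower) and 19 of 64 (7 higher, 12 lower), and the last step 4 of 59 and 4 of 62, with 2 in each direction at both oxygen levels. For a change of the oxygen effect 3 of 68, 6 of 66 and 6 of 63 genes were called along the model. Over all genes, the first step gave 12.2% at atmospheric and 9.23% at 3% oxygen. The step to transformed cells gave 24.3% and 16.3%, and the last step 4.12% and 5.92%. The changes of the oxygen effect gave 1.86%, 12.0% and 8.47% of all genes. For the middle one, the share of the lists lay below that of all genes, and for the last it lay near it.

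Finally, the genes whose pattern was most like that of ID1 and ID3 were found by Pearson correlation of log2(TPM + 0.5) over the 16 libraries, among 13137 protein-coding genes other than the members. For ID1 these were CFL1 (0.967), TAGLN (0.939), ATOH8 (0.934), FLNC (0.933) and N6AMT1 (0.927). For ID3 they were CFL1 (0.964), TAGLN (0.964), ATOH8 (0.947), DYNLL1 (0.905) and GTF3C6 (0.902). CFL1, TAGLN and FLNC encode the actin-binding proteins cofilin, transgelin and filamin C. TAGLN was 611 and 765 TPM at atmospheric against 1350 and 1420 TPM at 3% oxygen in immortalized cells, and 1750 and 1630 TPM against 204 and 222 TPM in transformed cells. CFL1 moved within a narrower range, from 1110 to 2590 TPM over all libraries. No gene was compared in this way with GREM1, whose sum is incomplete.

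**Figure D5:**
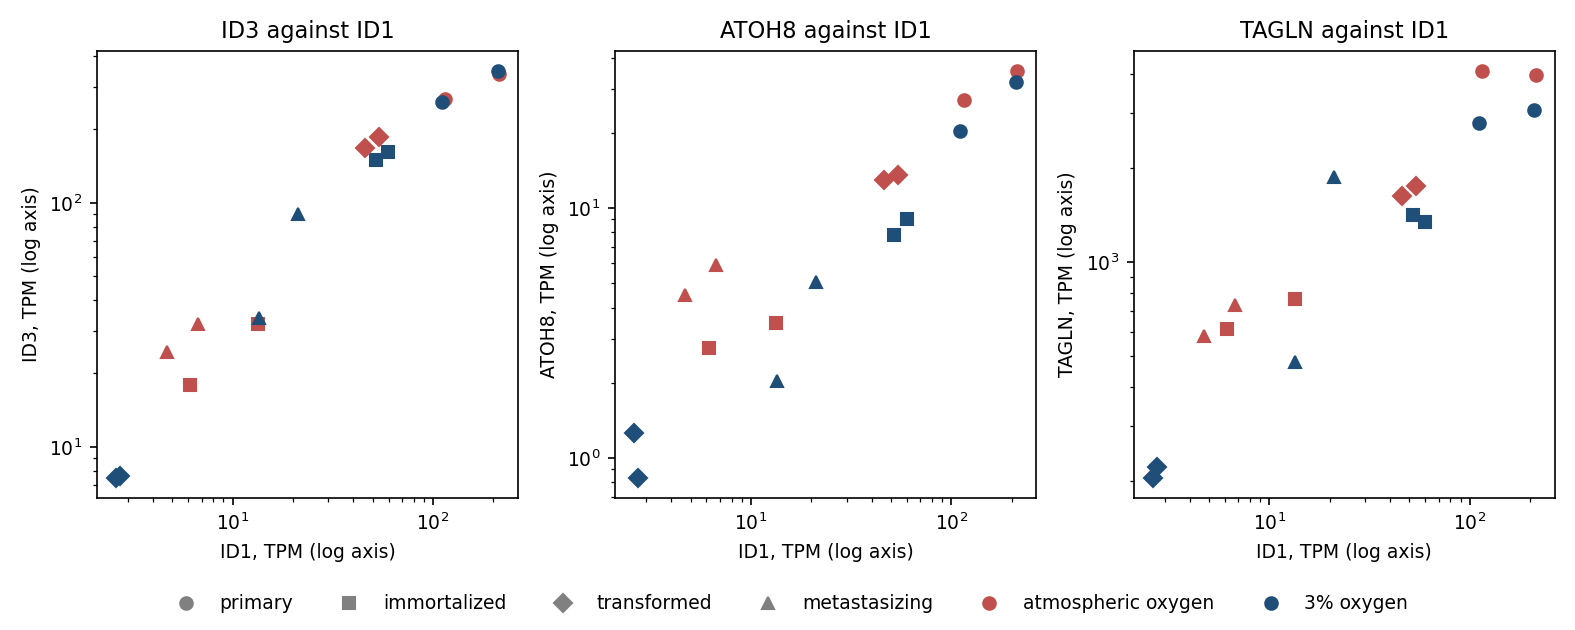
ID3, ATOH8 and TAGLN (vertical axes) against ID1 (horizontal axes), in TPM on logarithmic axes, 1 point per library, with stages as shapes and oxygen levels as colours. Transformed cells at 3% oxygen (blue diamonds) lie lowest on all axes and primary cells highest, and in TAGLN the duplicates of metastasizing cells at 3% oxygen lie apart, at 1880 and 481 TPM.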

How the data were processed

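RNA of 16 libraries was sequenced after poly-A selection with a stranded kit. The submitters' processing notes name kallisto 0.42.1 and GRCh37. Per transcript, the authors deposited TPM for 180253 entries (1 stray header line was skipped and 0 value columns stayed unused). Of these, 151453 were assigned to genes by identifier with GENCODE 44 on GRCh37, holding 88.2% to 90.1% of each library, and summed to 34451 genes, 19356 of them protein-coding. The canonical transcript was listed for 88 of the 93 other pathway genes. TPM keeps no depth.

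The study itself tested read counts. Lacking these, limma 3.58.1 (R 4.3.3) was fitted to log2(TPM + 0.5) with 8 group means, a trended prior and 8 residual degrees of freedom, with Benjamini-Hochberg adjustment over the protein-coding genes tested. Thresholds were an adjusted p of 0.01 and a log2 change of 1, with 1 TPM as the minimum group mean. This scale understates changes of low genes. With 2 libraries per group, exact permutation cannot go below a two-sided p of 0.333 and was not used. Changes of the oxygen effect were contrasts of that fit, and the scripts were tested on simulated data.

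The members and all gene lists were chosen with earlier results of these data known. Named are the members, up to 4 called genes per list with the largest change, the 5 genes most like ID1 and ID3, and TERT and HRAS as checks. 1 result that this rule names is not reported here. Alternatives were a pseudocount of 1 or 0.1, no filter or 5 TPM, median-ratio rescaling, only the groups compared, a replicate block, all genes, and each library left out.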

Additional observations from a re-analysis of the deposited data

Results flagged for a closer look

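Results are given here where the effect of oxygen differed between neighbouring stages. For the members no p-value is given, since they were chosen with earlier results known, and their difference counts as not tested. They are listed because both libraries of each oxygen level were ordered one way in one stage and the opposite way in the next. The share of all genes with such an order was not computed. Nothing is therefore read from how many members are listed, and small differences also meet this rule.

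From primary to immortalized cells the oxygen effect changed by 2.44 ± 0.22 for ID2, 1.75 ± 0.37 for ID4 and 1.51 ± 0.48 for BAMBI. These values are on the log2(TPM + 0.5) scale with the standard error of the fit. Each of these genes was lower at 3% oxygen in primary and higher in immortalized cells. From immortalized to transformed cells the oxygen effect changed by -6.53 ± 0.57 for ID1, -7.14 ± 0.54 for ID3 and -1.51 ± 0.37 for ID4. At the same step it changed by -0.98 ± 0.69 for SMAD7, -1.46 ± 0.48 for BAMBI and 0.54 ± 0.32 for BMP4. From transformed to metastasizing cells it changed by 5.48 ± 0.57 for ID1, 5.43 ± 0.54 for ID3 and -3.26 ± 0.32 for BMP4. Without library a of metastasizing cells at 3% oxygen these last 3 values were 5.17, 4.73 and -2.84, and without library b 5.79, 6.13 and -3.68.

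Other pathway genes were tested with limma, with adjustment over all protein-coding genes. Their lists were also chosen with earlier results known, which the p-values do not account for. From primary to immortalized cells the oxygen effect changed by 2.06 for FST (adjusted p = 0.00838), -1.07 for SMURF2 (adjusted p = 0.00132) and 2.10 for TGFBI (adjusted p = 5.26e-05). The FST call was lost without any 1 of the 8 libraries (1.93 to 2.18), and that of SMURF2 without library b of immortalized cells at 3% or library a at atmospheric oxygen.

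From immortalized to transformed cells it changed by -4.47 for ATOH8 (adjusted p = 1.05e-04), -1.85 for TGFBI (adjusted p = 1.93e-05), 1.98 for MSX2 (adjusted p = 0.00166) and 1.01 for NEDD4L (adjusted p = 0.00183). The calls of ATOH8, TGFBI and MSX2 held without each of the libraries compared. That of NEDD4L was lost without library b of immortalized cells at 3% oxygen or of transformed cells at either oxygen level (0.94 to 0.98).

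From transformed to metastasizing cells it changed by 4.26 for INHBA (adjusted p = 0.00182), 2.57 for ATOH8 (adjusted p = 0.00339), -1.06 for NEDD4L (adjusted p = 0.00199), -1.63 for RUNX2 (adjusted p = 0.00623, from a partial transcript sum), -1.96 for TWIST1 (adjusted p = 0.00641) and -2.36 for CDKN2B (adjusted p = 0.00323). INHBA alone of these 6 kept its call without each library, over values of 3.18 to 5.34, and lost it with only the groups compared in the fit (adjusted p = 0.0256). The call of TWIST1 was lost without 7 of the 8 libraries and that of RUNX2 without 6. CDKN2B and ATOH8 each lost it without 4 of the libraries and NEDD4L without 3.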

How the results depend on the processing

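No called difference of a member or a named gene changed direction under any alternative run, while uncalled differences of BAMBI, BMP2, ID1, ID3, SMAD6 and SMAD7 did. Not all of these were near 0. The change of oxygen effect from transformed to metastasizing cells was 0.83 for SMAD7 and 0.63 for BAMBI. Without library a of metastasizing cells at 3% oxygen it was -0.22 and -0.11. With only the groups compared in the fit, 3 members were called for oxygen in immortalized cells (5 with all groups), 0 in metastasizing cells (1) and 0 for the step to metastasizing cells at 3% oxygen (4), where 2 residual degrees of freedom remain for a pair of groups. The change of oxygen effect from primary to immortalized cells gave 4 members in that fit, 3 with a pseudocount of 1, 2 without a filter and 3 after median-ratio rescaling (1). A filter of 5 TPM left 3 members for oxygen in immortalized cells, 3 for the change of oxygen effect from immortalized to transformed cells (5) and 2 for the step from primary to immortalized cells at 3% oxygen (4), as did a pseudocount of 0.1. Among the other pathway genes, the fit of only the groups compared called 3 for oxygen in primary cells (8), 5 in transformed (3), 1 in metastasizing cells (8) and 0 for the step to metastasizing cells at 3% oxygen (4). For the changes of oxygen effect along the model it called 5, 12 and 0 (3, 6 and 6). The filter of 5 TPM gave 4 for oxygen in immortalized cells (7).

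Leaving out 1 library gave 3 to 4 members for oxygen in immortalized cells, 1 to 4 in metastasizing cells, 2 to 3 for the step from primary to immortalized cells at 3% oxygen, 1 to 2 for the step to metastasizing cells at atmospheric oxygen (3) and 3 to 6 for the last change of oxygen effect (3). For the other pathway genes it gave 5 to 7 for oxygen in primary, 4 to 5 in immortalized and 1 to 12 in metastasizing cells, 0 to 1 for the step to metastasizing cells at atmospheric and 0 to 11 at 3% oxygen (4 each), and 1 to 4 and 1 to 18 for the first and the last change of oxygen effect. The highest values of the last stage came without a library of metastasizing cells at 3% oxygen: without b, 4 members for oxygen, and 6 members and 18 other genes for the last change of oxygen effect.

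Replicate letters did not pair the plates: same-letter deviations correlated at -0.15 to -0.0773 over the oxygen and -0.155 to 0.226 over the stage comparisons. With a replicate block, 8 members in place of 7 were called from primary to immortalized cells and 28 other genes in place of 30 from immortalized to transformed cells at atmospheric oxygen. Median-ratio rescaling moved the median of all genes by -0.12, -0.14 and 0.12 for oxygen in primary, immortalized and metastasizing cells, by -0.23 for the step to transformed cells at atmospheric oxygen and by 0.14 for the middle change of oxygen effect. TPM keeps no depth, so low values such as SMAD6, BMP2 and ID4 carry an unknown counting error.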
